A study of Mus musculus with 14 samples.

Results

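Transcripts of 8 ubiquitin ligase genes of muscle were examined in left ventricles of male mice carrying the gene trap Uty Gt(XS0378)Wtsi (UtyGT) and of isogenic wild-type (WT) males. The genes were chosen by name, as Trim63, Trim54, Trim55, Fbxo32, Fbxo40, Mdm2, Nedd4 and Stub1, out of 47642 genes in the deposited table, and all 8 had enough counts to be tested among 11563 genes. UtyGT males came from E14Tg2a.4 embryonic stem cells of 129P2/OlaHsd origin, in which the trap lies in an intron of the chromosome Y gene Uty, and were bred for many generations to C57BL/6J females. WT males descended from 129P2/OlaHsd males bred to C57BL/6J females in the same way, so that both genotypes share a 129P2 chromosome Y on a C57BL/6J background. All mice were 40 days old, the trap is present in every cell, and no mouse gave more than 1 of the 7 UtyGT and 7 WT libraries. QuantSeq 3′ FWD libraries were sequenced, which hold reads from the 3′ ends of polyadenylated RNA.

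Ubiquitin is a small protein that is attached to other proteins through the successive action of activating (E1), conjugating (E2) and ligating (E3) enzymes, and chains of it direct proteins to the proteasome. The ligases choose the substrate. Trim63 (MuRF1), Trim54 (MuRF3) and Trim55 (MuRF2) encode RING-type ligases of the sarcomere and of microtubules, while Fbxo32 (MAFbx or atrogin-1) and Fbxo40 encode F-box proteins that bring substrates to a cullin complex. Trim63 and Fbxo32 are best known as the genes induced in wasting skeletal muscle, under control of FOXO transcription factors. Mdm2 encodes the RING ligase that limits p53, Nedd4 a HECT-type ligase of membrane proteins, and Stub1 encodes CHIP, a U-box ligase that works with heat shock chaperones.

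The bases before the transcription start are shown for Trim54, the only member with an edgeR adjusted p below 0.05 between genotypes, and for its paralog Trim63. They are also shown for Fbxo40, the remaining muscle-restricted member with an entry in the RefSeq promoter table (GRCm38). Of 8 members 6 had an entry, and Trim55 and Fbxo32 did not. Each run holds 250 bases, written 5′ to 3′ on the strand of the gene, and ends at the base before the RefSeq start. Capitals mark matches to the FOXO core TGTTTAC, the MCAT element CATTCC known from muscle promoters, and the MEF2 element, on either strand.
Trim54, chr5:31116362-31116611, plus strand: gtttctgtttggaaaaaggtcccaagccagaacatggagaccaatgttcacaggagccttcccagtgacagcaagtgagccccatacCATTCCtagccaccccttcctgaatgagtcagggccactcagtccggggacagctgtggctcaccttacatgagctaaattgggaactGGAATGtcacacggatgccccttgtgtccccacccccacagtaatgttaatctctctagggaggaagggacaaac
Trim63, chr4:134314870-134315119, plus strand: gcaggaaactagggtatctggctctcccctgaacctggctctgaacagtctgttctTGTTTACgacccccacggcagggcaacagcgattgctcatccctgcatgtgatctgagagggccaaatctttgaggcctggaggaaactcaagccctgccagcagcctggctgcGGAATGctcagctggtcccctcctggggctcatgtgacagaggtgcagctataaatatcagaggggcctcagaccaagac
Fbxo40, chr16:36990468-36990717, minus strand: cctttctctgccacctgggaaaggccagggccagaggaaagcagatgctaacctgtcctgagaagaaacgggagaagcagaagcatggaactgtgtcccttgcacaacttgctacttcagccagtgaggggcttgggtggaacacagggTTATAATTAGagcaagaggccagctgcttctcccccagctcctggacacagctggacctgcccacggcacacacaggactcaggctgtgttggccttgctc

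The Trim63 run held the FOXO core at position -194 and an MCAT element at -80 relative to the start. The Trim54 run held MCAT elements at -163 and -75 and no FOXO core. In the Fbxo40 run the MEF2 element began at -101. A further Fbxo40 entry of the promoter table (chr16:36979137-36979386), not shown, held none of the marked motifs. Among the members not shown Mdm2 held the FOXO core in reverse at -153. Of 32851 promoters of the same length in the table, 3.17% held the FOXO core, 12.6% the MCAT element and 2.92% the MEF2 element. The E-box CANNTG was found in all 6 members with an entry but also in 66.2% of all promoters, and no member held a CArG box, which 1.47% of all promoters held. These matches describe letters in the windows, and binding was not measured in the counts analysed here.

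Reads assigned to genes totalled 6357485 to 10268706 per UtyGT library and 6322161 to 9397378 per WT library. Uty had 1 to 6 counts in UtyGT libraries and 47 to 75 in WT libraries, so that no library departed from its genotype. Levels are given as CPM, reads of a gene per fixed total of reads assigned to genes, with TMM scaling between libraries, and log2 fold changes as UtyGT over WT with the SE of the edgeR quasi-likelihood fit. A gene is said to be called where the Benjamini-Hochberg adjusted p over 11563 genes was below 0.05. The tissue was heart muscle by its markers: the summed level of 10 cardiomyocyte markers was 66384 to 116980 CPM in UtyGT and 65479 to 126030 CPM in WT, whereas the skeletal muscle myosins Myh4, Myh2 and Myh1 had 0, 0 and 1 counts over all UtyGT libraries and 2, 1 and 1 over all WT libraries. Other genes of the skeletal muscle list were detected, the highest being Tnni2, with 297 counts over UtyGT libraries and 330 over WT libraries, which was the only one of 10 to be tested and was not called (-0.24 ± 0.24, edgeR adjusted p = 0.567). As a whole ventricle was sampled, fewer cells of a type and less RNA per cell cannot be told apart. UtyGT 6 and WT 4 stood apart from the other libraries, with scores of 54.7 and 59.1 on the first principal component against -45.4 to 26.2 in the others. Values without them are given for some results.

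Of the 8 members 1 was called, Trim54, which was lower in UtyGT. Over all tested genes 8.03% were called, 4.70% as higher and 3.34% as lower in UtyGT. No member was called higher by edgeR or by DESeq2, and 3 members had an unadjusted edgeR p below 0.05 (24.8% of all tested genes), namely Trim54 on the lower side and Nedd4 and Trim55 on the higher side. In none of the 8 did the genotypes separate without overlap, as 2.14% of all tested genes did. The log2 fold change was positive for 4 members and negative for 4, with a median of -0.03, against 0.01 over all tested genes.

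**Figure D1:**
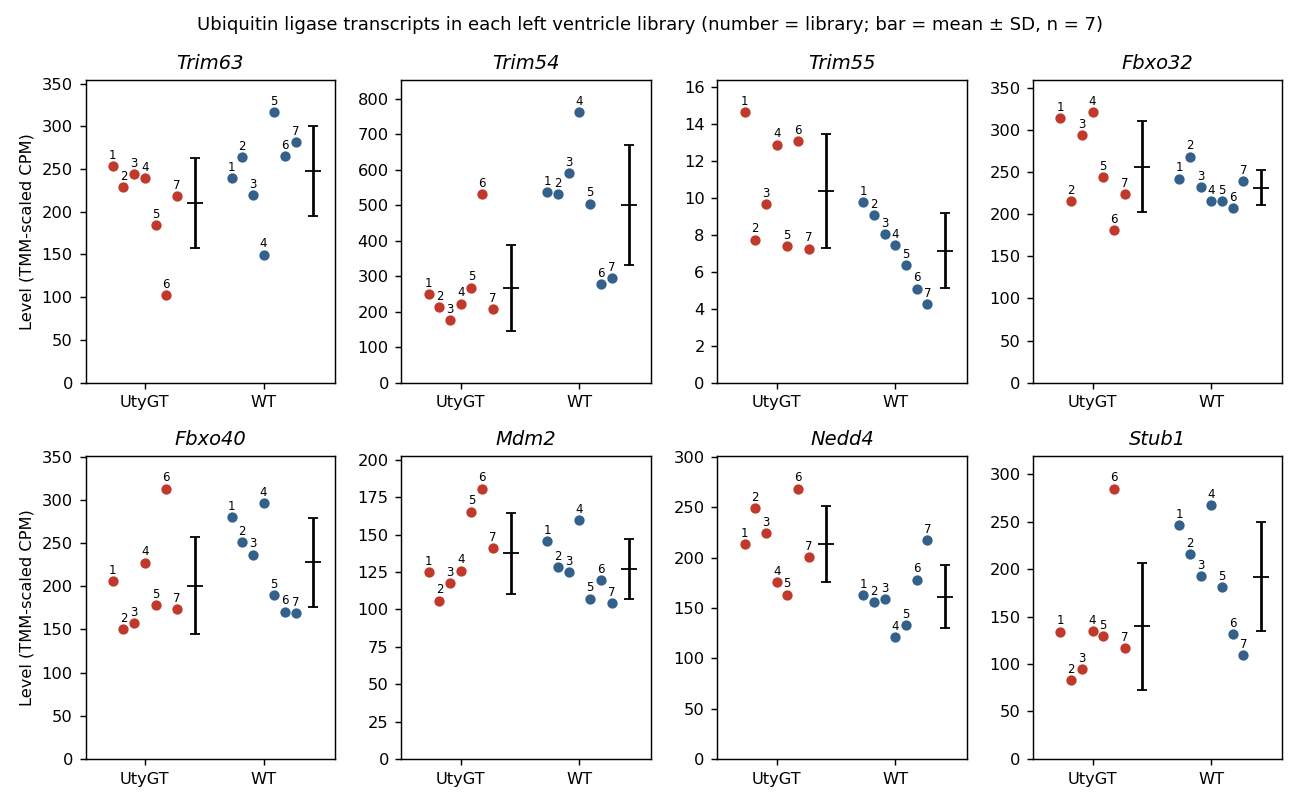
Level of each ligase gene (TMM-scaled CPM, vertical axis from 0) in 7 UtyGT (left, red) and 7 WT (right, blue) libraries, with the library number beside each point and the mean ± SD to the right of each group. For Trim54, 6 UtyGT libraries lay at 175 to 268 CPM and UtyGT 6 at 532 CPM, against 277 to 763 CPM in WT.

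The MuRF genes are described first. Trim54 (ENSMUSG00000062077, chromosome 5, 31116712 to 31137630 on GRCm38, plus strand) encodes MuRF3, which associates with microtubules and with the Z-disc. Its level was 249.6, 213, 175, 223, 268, 532 and 207 CPM in UtyGT libraries 1 to 7, and 538, 531, 591, 763, 505, 277 and 294 CPM in WT libraries 1 to 7. Of the UtyGT libraries 6 were thus below every WT library and UtyGT 6 lay within the WT range, while WT 6 and WT 7 were close to the UtyGT libraries. Trim54 averaged 267 ± 121 CPM in UtyGT and 499.6 ± 169 CPM in WT (SD, n = 7 each), or 53.4% of WT, with a log2 fold change of -0.90 ± 0.25 (95% interval -1.44 to -0.37, edgeR adjusted p = 0.0373). The call was close to the threshold and was lost on leaving out any of 11 of the 14 libraries (edgeR adjusted p from 0.0547 to 0.0840, the highest without WT 4). It was kept without UtyGT 6, WT 6 or WT 7, and the fold change without WT 4 and UtyGT 6 together was -1.03 ± 0.18 (edgeR adjusted p = 0.00169).

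Trim63 (ENSMUSG00000028834, chromosome 4, 134315120 to 134329629, plus strand) encodes MuRF1, which binds titin at the M-line and ubiquitinates thick filament proteins. Its level was 253, 229, 244, 239, 184, 103 and 218 CPM in UtyGT libraries 1 to 7, and 239, 264, 219, 149.7, 316, 265 and 281 CPM in WT libraries 1 to 7. The genotypes overlapped, and the lowest library of each genotype was UtyGT 6 or WT 4, the same libraries in which Trim54 was highest. The log2 fold change was -0.24 ± 0.19 and Trim63 was not called (95% interval -0.63 to 0.15, edgeR adjusted p = 0.447).

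Trim55 (ENSMUSG00000060913, chromosome 3, 19644474 to 19692421, plus strand) encodes MuRF2, a partner of titin and microtubules in developing sarcomeres. It was measured at 14.6, 7.74, 9.66, 12.9, 7.40, 13.0 and 7.25 CPM in UtyGT libraries 1 to 7, and at 9.76, 9.07, 8.03, 7.46, 6.36, 5.09 and 4.24 CPM in WT libraries 1 to 7. Of the UtyGT libraries 3 were above every WT library and none was below the lowest WT library. Depth was lower than for the other members, at 55 to 124 counts per UtyGT library and 30 to 79 per WT library, and the log2 fold change of 0.53 ± 0.22 was not called (95% interval 0.07 to 0.99, edgeR adjusted p = 0.138). BC002189, a transcript annotated within an intron on the same strand, held 336 counts over UtyGT libraries and 229 over WT libraries, so reads of unspliced Trim55 RNA could be assigned to either.

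Since 3′ counts do not scale with transcript length, levels of the MuRF genes are set side by side in CPM. Their transcripts differ in GC content, at 59.9% for Trim54, 52.4% for Trim63 and 48.2% for Trim55. Reads of Trim55 may also be assigned to BC002189, so that shares between these genes are approximate. Trim54 took 40.9% to 82.1% of their summed level in UtyGT (mean 53.1% ± 13.8) and 50.6% to 82.9% in WT (64.6% ± 11.6). Trim55 took 1.61% to 2.83% in UtyGT and 0.732% to 1.24% in WT, a description without overlap that combines the lower Trim54 with the Trim55 values above. The ratio of Trim54 to Trim63 was 0.718 to 1.45 in 6 UtyGT libraries and 5.18 in UtyGT 6, against 1.04 to 2.70 in 6 WT libraries and 5.09 in WT 4.

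The F-box genes showed no called difference. Fbxo32 (ENSMUSG00000022358, chromosome 15, 58175879 to 58214892, minus strand), whose product MAFbx directs calcineurin and other proteins to degradation in the heart, was at 315, 216, 294, 322, 245, 182 and 224 CPM in UtyGT libraries 1 to 7 and at 243, 269, 232, 216, 216, 208 and 240.1 CPM in WT libraries 1 to 7. UtyGT libraries spread on either side of the WT range, 3 above it and 1 below it, with an SD of 54.0 CPM in UtyGT and 20.9 CPM in WT. The log2 fold change was 0.15 ± 0.13 (95% interval -0.13 to 0.42, edgeR adjusted p = 0.519).

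Fbxo40 (ENSMUSG00000047746, chromosome 16, 36963460 to 36990467, minus strand) encodes a muscle-restricted F-box protein that targets the insulin receptor substrate IRS1. Its level was 206, 150.4, 157, 227, 178, 313 and 173 CPM in UtyGT libraries 1 to 7 and 280.2, 251, 236, 296, 190.0, 170.5 and 169 CPM in WT libraries 1 to 7. UtyGT 6 was above all other libraries and the rest of UtyGT overlapped WT. The log2 fold change was -0.18 ± 0.18 and was not called (95% interval -0.55 to 0.19, edgeR adjusted p = 0.557).

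Of the members that are not muscle-restricted, Nedd4 (ENSMUSG00000032216, chromosome 9, 72662346 to 72749852, plus strand), a ligase that sorts receptors and channels, was higher on average in UtyGT without being called. Its level was 213, 249.3, 224, 176, 163, 269 and 200.4 CPM in UtyGT libraries 1 to 7 and 163, 156, 159, 121, 133, 178 and 217 CPM in WT libraries 1 to 7. Each UtyGT library but UtyGT 4 and UtyGT 5 exceeded each WT library but WT 7. The means were 214 ± 37.8 CPM in UtyGT and 161 ± 31.3 CPM in WT (SD, n = 7 each), with a log2 fold change of 0.41 ± 0.14 (95% interval 0.11 to 0.70, edgeR adjusted p = 0.0854). Without WT 7 the log2 fold change was 0.49 and was called (edgeR adjusted p = 0.0313).

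Stub1 (ENSMUSG00000039615, chromosome 17, 25830636 to 25833361, minus strand), encoding CHIP, was at 134, 83.4, 94.8, 135, 129, 285 and 117 CPM in UtyGT libraries 1 to 7 and at 246, 216, 192, 267, 181, 132 and 109 CPM in WT libraries 1 to 7. The pattern over libraries was that of Trim54: UtyGT 6 was far above the other UtyGT libraries, and WT 6 and WT 7 were the lowest of WT. The log2 fold change was -0.46 ± 0.25 (95% interval -0.99 to 0.07, edgeR adjusted p = 0.267), and it was -0.75 and called without UtyGT 6 (edgeR adjusted p = 0.0117). The 3′ end of Stub1 overlaps that of Jmjd8 on the opposite strand, which held 601 counts over UtyGT libraries and 644 over WT libraries. The strand setting of the counting is not given in the sources used here, so reads of these genes may not have been told apart.

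Mdm2 (ENSMUSG00000020184, chromosome 10, 117688875 to 117710758, minus strand) was measured at 106 to 181 CPM in UtyGT (median 126) and 104 to 159 CPM in WT (median 125), and the genotypes overlapped over most of their range. Its log2 fold change was 0.11 ± 0.14 (95% interval -0.17 to 0.40, edgeR adjusted p = 0.645).

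**Figure D2:**
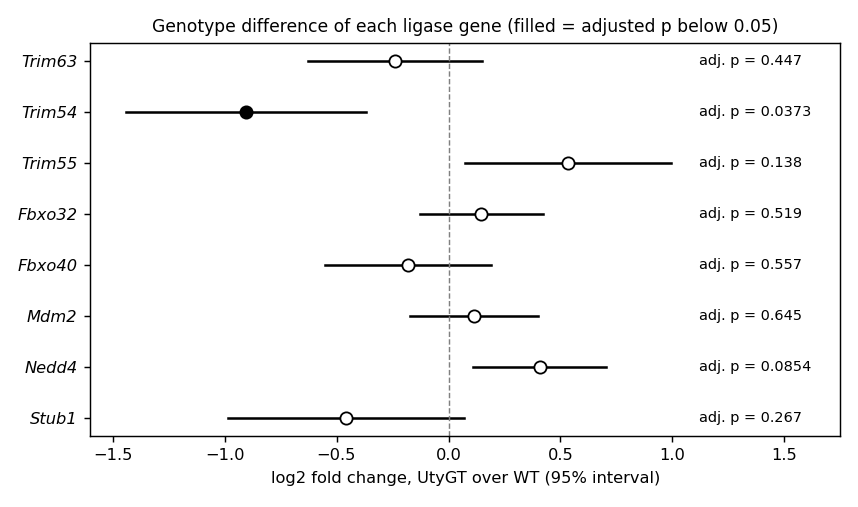
Log2 fold change of UtyGT over WT for each ligase gene (horizontal axis, edgeR estimate with 95% interval) with its adjusted p, where a filled point marks an adjusted p below 0.05. The interval of Trim54 ran from -1.44 to -0.37, those of Trim55 and Nedd4 lay above 0, and those of the remaining genes included 0.

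In order of mean CPM, Trim54 had the highest mean of the members in WT, above Trim63 in 7 of 7 libraries. In UtyGT Trim54 also had the highest mean, but it exceeded Fbxo32, the next in order, in only 2 of 7 libraries. Trim63, Fbxo32 and Fbxo40 followed Trim54 in WT and did not separate, with Trim63 above Fbxo32 in 3 of 7 libraries and Fbxo32 above Fbxo40 in 4 of 7. Nedd4 was the third in UtyGT and the sixth in WT. Mdm2 stood next to last in both genotypes and was below Stub1 in 3 of 7 UtyGT libraries. Trim55 was the lowest in all 14 libraries.

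Levels of the members were compared with the GC slope of each library, that is the slope over genes of the deviation of a library from the mean of all libraries on the GC content of transcripts, in log2 units per 10 GC points. The slope averaged -0.111 ± 0.148 in UtyGT and 0.111 ± 0.133 in WT (SD, n = 7 each). UtyGT 6 was the only UtyGT library with a positive slope (0.144), and WT 6 and WT 7 were the only WT libraries with a negative slope (-0.0186 and -0.0756), the same libraries in which Trim54 departed from its genotype. Transcripts of Trim54 and Stub1 had a GC content of 59.9% and 60.8%, against 45.8% to 52.4% for the remaining 6 members. Within UtyGT the level of Trim54 (log2 CPM) followed the slope with a Pearson r of 0.91 (exact permutation p = 0.00238, adjusted p = 0.0180 over 16 values) and a Spearman rho of 0.93 (exact permutation p = 0.00675, adjusted p = 0.0762). Within WT r was 0.94 (exact permutation p = 0.00337, adjusted p = 0.0180) and rho was 0.82 (exact permutation p = 0.0341, adjusted p = 0.0910). Without the libraries with the slopes farthest from the median, r was 0.75 in UtyGT and 0.91 in WT.

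Stub1 followed the slope too, with r of 0.93 in UtyGT (exact permutation p = 0.00298, adjusted p = 0.0180) and 0.84 in WT (exact permutation p = 0.0198, adjusted p = 0.0454), and rho of 0.86 (adjusted exact permutation p = 0.0762) and 0.68 (adjusted exact permutation p = 0.219). Without the same libraries r was 0.80 in UtyGT and 0.55 in WT. Trim63 had negative values of r, -0.82 in UtyGT (adjusted exact permutation p = 0.0520) and -0.72 in WT (adjusted exact permutation p = 0.113), which shrank to -0.38 and -0.16 without those libraries and therefore rested on them. Members with a lower GC content followed the slope as well in some groups. Fbxo40 had r of 0.89 in UtyGT (adjusted exact permutation p = 0.0267) and 0.76 in WT (adjusted exact permutation p = 0.0783), Mdm2 had r of 0.84 in UtyGT (adjusted exact permutation p = 0.0429) and 0.68 in WT (adjusted exact permutation p = 0.126), and Nedd4 had r of 0.00 in UtyGT (adjusted exact permutation p = 1.0) and -0.91 in WT (adjusted exact permutation p = 0.0267). Their rho had adjusted exact permutation p of 0.0762 or more. Without the libraries with the farthest slopes r was 0.65 in UtyGT and 0.45 in WT for Fbxo40, 0.68 and -0.09 for Mdm2, and -0.91 and -0.65 for Nedd4. The relation was therefore not limited to Trim54 and Stub1. With the slope as a covariate of the fit, chosen after the data had been seen, the log2 fold change of Trim54 was -0.15 ± 0.14 (edgeR adjusted p = 0.491) and that of Stub1 0.22 ± 0.15 (0.313). In that fit Trim63 was called lower (-0.74 ± 0.17, edgeR adjusted p = 0.00379), and Trim55 and Mdm2 were called higher (0.86 ± 0.24 and 0.41 ± 0.12, edgeR adjusted p = 0.0151 and 0.0202). With a correction of each gene for its own GC content, Trim54 stood at -0.65 ± 0.19 (edgeR adjusted p = 0.0603). As the slope was lower on average in UtyGT than in WT, its part in the Trim54 difference and that of genotype cannot be told apart in these libraries.

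**Figure D3:**
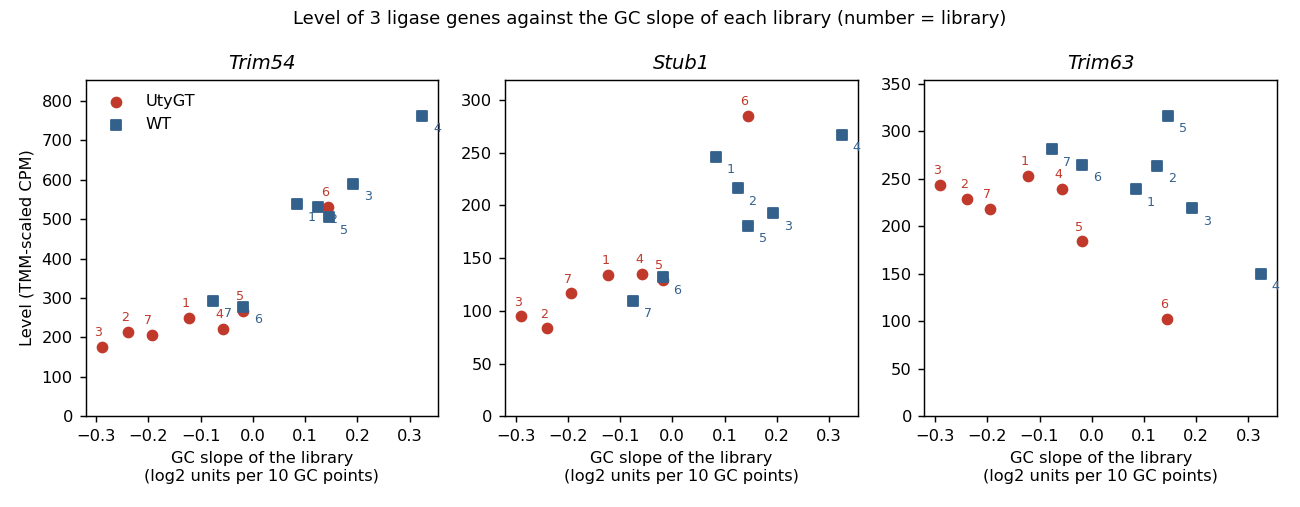
Level of Trim54, Stub1 and Trim63 (TMM-scaled CPM, vertical axes from 0) against the GC slope of each library (log2 units per 10 GC points), with UtyGT as red circles and WT as blue squares and the library number beside each point. UtyGT 6, with a slope of 0.144, lay among the WT libraries for Trim54, and WT 6 and WT 7 lay among the UtyGT libraries.

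Members were also compared with each other within genotypes, over 10 correlations of log2 CPM, and none had an adjusted exact permutation p below 0.05, the smallest being 0.115. Trim63 with Trim54 had negative values of r, -0.93 in UtyGT (exact permutation p = 0.0230, adjusted p = 0.115) and -0.64 in WT (exact permutation p = 0.116, adjusted p = 0.290). Their rho was -0.50 in UtyGT (exact permutation p = 0.267) and -0.86 in WT (exact permutation p = 0.0238), with adjusted values of 0.533 and 0.238. The relation rested on the extreme libraries, as r was 0.25 without UtyGT 5 and UtyGT 6 and -0.09 without WT 3 and WT 4. Trim63 and Fbxo32, the pair known for joint induction in wasting, had r of 0.77 in UtyGT (exact permutation p = 0.0165, adjusted p = 0.115) and 0.17 in WT (exact permutation p = 0.706, adjusted p = 0.784). Their rho was 0.75 in UtyGT (adjusted exact permutation p = 0.331) and 0.00 in WT (adjusted exact permutation p = 1.0), and r was 0.85 in UtyGT and -0.40 in WT without the libraries farthest from the median of Trim63. On CPM without TMM scaling r was 0.84 in UtyGT and 0.69 in WT, so that the low value in WT depended on the scaling.

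As a description over 14 libraries after subtraction of genotype means, the genes whose levels were most like Trim54 were Tapbp, Huwe1 and Prr12, each with r of 0.98. Huwe1, itself a HECT ligase, had a log2 fold change of 0.02 ± 0.17 (edgeR adjusted p = 0.969), while Tapbp and Prr12 had -0.50 ± 0.21 and -0.45 ± 0.22 (edgeR adjusted p = 0.156 and 0.218). Stub1 was most like Eif3d, Tsn and Cox10 (r of 0.98 to 0.99) and Fbxo40 most like Egln2, Serbp1 and Dcaf11 (0.97 to 0.98). Trim63 was most like Apoo, Rps23 and Uqcrfs1 (0.96 to 0.97), and Mdm2 like Emd and Ptges3l (0.96 for each). Likeness was weaker for Trim55, with Ktn1, Zmynd8 and Sptbn1 (0.92), for Nedd4, with Calm2, Copb1 and Rnf128 (0.88 to 0.92), and for Fbxo32, with Cyb5a, Gm43672 and Dusp16 (0.89). Among the members, r was 0.92 for Trim54 with Stub1, 0.96 for Fbxo40 with Stub1 and 0.87 for Trim54 with Fbxo40. All of these points share the scaling and GC slope of their library.

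The pathway around the members was then described by lists of genes. For comparison with the counts of these lists and of the marker lists below, edgeR called 8.03% of all tested genes, 4.70% as higher and 3.34% as lower. An unadjusted edgeR p below 0.05 was found for 24.8% of all tested genes. No list was tested as a set. Of 32 other ligases of striated muscle none was called by edgeR in either direction, 5 had an unadjusted p below 0.05 and DESeq2 called 1 higher, and the median log2 fold change was 0.01. The smallest adjusted p was that of Ubr1, a ligase that reads N-terminal residues, at 28.6 ± 10.6 CPM in UtyGT and 16.8 ± 5.66 CPM in WT (log2 fold change 0.76 ± 0.24, edgeR adjusted p = 0.0616). Fbxo21 and Mul1 had log2 fold changes of -0.34 and -0.48 and neither was called.

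Among genes that encode ubiquitin itself, Rps27a, whose product is ubiquitin fused to a ribosomal protein, was called higher, at 178 ± 30.8 CPM in UtyGT and 104 ± 27.6 CPM in WT (log2 fold change 0.77 ± 0.18, edgeR adjusted p = 0.0172). The polyubiquitin gene Ubb was not called (0.02 ± 0.14, edgeR adjusted p = 0.951). With the GC slope as a covariate Rps27a was not called (edgeR adjusted p = 0.128).

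Among 28 tested E1 and E2 genes 1 was called higher and 2 lower, with a median of -0.10. Ube2m, which conjugates the ubiquitin-like protein NEDD8 to cullins, fell to 65.4 ± 10.5 CPM in UtyGT, against 128 ± 33.5 CPM in WT (log2 fold change -0.96 ± 0.16, edgeR adjusted p = 0.00337), and was called lower under the GC slope covariate as well (-0.55, edgeR adjusted p = 0.0114). Ube2j1, an E2 of the endoplasmic reticulum, and Ube2q2 were called at -0.53 ± 0.16 and 0.69 ± 0.21 (edgeR adjusted p = 0.0460 and 0.0466). With the GC slope as a covariate Ube2j1 stood at -0.11 ± 0.13 (edgeR adjusted p = 0.589) and Ube2q2 was called at 1.08 ± 0.24 (edgeR adjusted p = 0.00315). Of 21 genes of cullin complexes and their regulators 1 was called each way, with a median of 0.12. Nedd8 was at 251 ± 48.6 CPM in UtyGT and 363 ± 79.3 CPM in WT (-0.53 ± 0.15, edgeR adjusted p = 0.0392), and Cul5, a cullin scaffold, at 99.8 ± 10.2 CPM in UtyGT and 75.4 ± 10.04 CPM in WT (0.40 ± 0.11, edgeR adjusted p = 0.0305). With the GC slope as a covariate neither was called (edgeR adjusted p = 0.406 and 0.227).

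Of 20 deubiquitinases, which remove ubiquitin, 1 was called higher and 1 lower. Uchl1 was at 4.81 ± 1.86 CPM in UtyGT and 10.2 ± 1.19 CPM in WT with no overlap (log2 fold change -1.08 ± 0.21, edgeR adjusted p = 0.00784). Usp15 was at 29.8 ± 7.39 CPM in UtyGT and 18.7 ± 5.46 CPM in WT (0.68 ± 0.20, edgeR adjusted p = 0.0431), and its call was lost with the GC slope as a covariate (0.323). The call of Uchl1 was kept with that covariate (-0.65 ± 0.20, edgeR adjusted p = 0.0286).

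Of 20 tested regulators of Trim63 and Fbxo32 transcription 1 was called higher and 3 lower, with a median of -0.24. Ppargc1a, a coactivator known to restrain FOXO in muscle, rose to 312 ± 66.9 CPM in UtyGT, against 198 ± 35.6 CPM in WT (log2 fold change 0.66 ± 0.15, edgeR adjusted p = 0.0136). Akt2, a kinase that holds FOXO outside the nucleus, fell to 233 ± 88.4 CPM in UtyGT, against 432 ± 121 CPM in WT (-0.89 ± 0.22, edgeR adjusted p = 0.0234). Tfeb, a transcription factor known to bind the Trim63 promoter, and Hdac9, a class II deacetylase, were called lower at -0.84 ± 0.20 and -0.49 ± 0.14 (edgeR adjusted p = 0.0205 and 0.0418). With the GC slope as a covariate none of Akt2, Tfeb and Hdac9 was called (edgeR adjusted p = 0.154, 0.151 and 0.0576), with log2 fold changes of -0.29 for Akt2, -0.35 for Tfeb and -0.48 for Hdac9, which was -0.49 without it. Ppargc1a was called with that covariate (0.69 ± 0.16, edgeR adjusted p = 0.00480). In the fit with genotype as the only term, Trim63 and Fbxo32 were not called in either direction, as given above. With the GC slope as a covariate Trim63 was called lower (-0.74 ± 0.17, edgeR adjusted p = 0.00379) and Fbxo32 was not called (0.04 ± 0.15, edgeR adjusted p = 0.897). Trim63 was called lower with a surrogate variable as well (-0.37 ± 0.11, edgeR adjusted p = 0.0230).

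Substrates and partners of the members were examined by the ligase that they belong to. Of 23 substrates and sarcomere partners of the MuRF proteins none was called by edgeR, 8 had an unadjusted p below 0.05 and DESeq2 called 3 lower. The median was -0.23, with 17 negative and 6 positive values. Actn2, the Z-disc actinin, was at 428 ± 31.7 CPM in UtyGT and 549.7 ± 100.3 CPM in WT (log2 fold change -0.36 ± 0.12, edgeR adjusted p = 0.0717), and the ubiquitin receptor gene Sqstm1, the myosin light chain Myl3 and Ppara had -0.42, -0.61 and 0.53 without a call. Of 13 tested genes of the MAFbx and Fbxo40 list 1 was called each way: Nfatc3, encoding a target of calcineurin, at 0.43 ± 0.11 (edgeR adjusted p = 0.0266) and Eif3f, encoding an initiation factor subunit that MAFbx degrades, at -0.48 ± 0.13 (edgeR adjusted p = 0.0308). Both calls were lost with the GC slope as a covariate (edgeR adjusted p = 0.0679 and 0.376).

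Of 27 tested genes around Mdm2, p53 and its targets, none was called higher by edgeR or DESeq2 and 1 was called lower, with 6 at an unadjusted p below 0.05 and a median of 0.08. This was Ddit4, a stress-induced inhibitor of mTORC1, at 73.7 ± 18.0 CPM in UtyGT and 130.4 ± 45.2 CPM in WT (log2 fold change -0.82 ± 0.21, edgeR adjusted p = 0.0258). Its call was kept with the GC slope as a covariate (-0.95 ± 0.28, edgeR adjusted p = 0.0312). Cdkn1a, the p21 gene and the best known p53 target, was at 29.3 ± 8.94 CPM in UtyGT and 41.1 ± 4.98 CPM in WT and was not called (-0.49 ± 0.17, edgeR adjusted p = 0.0911). Of 17 Nedd4 adaptors and targets none was called by edgeR or DESeq2, 4 had an unadjusted p below 0.05, and the median was 0.02.

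Of 18 chaperone partners of CHIP 4 were called higher by edgeR and 5 by DESeq2, and none was called lower by either. Values were positive for 11 of them and negative for 7, with a median of 0.22, while Stub1 itself was not called. An unadjusted p below 0.05 was seen for 9, of which Hspa8 was lower in UtyGT, at 190 ± 26.7 CPM against 234 ± 48.1 CPM in WT (-0.30 ± 0.14, edgeR adjusted p = 0.184). Hspa4, an exchange factor of HSP70, rose to 302 ± 58.7 CPM in UtyGT, against 163 ± 21.3 CPM in WT, with no overlap between genotypes (log2 fold change 0.89 ± 0.13, edgeR adjusted p = 0.00193). Bag3, the cochaperone that leads HSP70 clients to autophagy in cardiomyocytes, rose to 679.9 ± 137 CPM in UtyGT, against 403 ± 75.4 CPM in WT (0.75 ± 0.15, edgeR adjusted p = 0.00904). Dnaja1 and Hsp90aa1, encoding an HSP40 and the inducible HSP90, were called at 0.75 ± 0.16 and 0.89 ± 0.23 (edgeR adjusted p = 0.0112 and 0.0296). With a correction for GC content Hspa4 and Bag3 were called (edgeR adjusted p = 0.00190 and 0.00936) and Dnaja1 and Hsp90aa1 were not (0.0511 and 0.108), and with the GC slope as a covariate all 4 were. Across all alternatives the list held 2 to 7 genes called higher and 0 to 2 called lower.

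Calls of these pathway genes differed in how they held when single libraries were left out. Those of Ube2m, Uchl1, Rps27a, Ppargc1a, Tfeb, Hspa4, Bag3 and Dnaja1 were kept in 14 of 14 such fits. That of Ddit4 was lost without UtyGT 3 or UtyGT 7 (edgeR adjusted p up to 0.0611), that of Akt2 without UtyGT 1, UtyGT 3, UtyGT 7 or WT 4 (up to 0.0551), and that of Hsp90aa1 without UtyGT 3, UtyGT 7, WT 3 or WT 5 (up to 0.0652). Those of Nfatc3, Eif3f, Cul5, Hdac9, Nedd8, Usp15, Ube2j1 and Ube2q2 were lost in 7 to 12 of 14 fits, with an edgeR adjusted p up to 0.104. WT 4, WT 5 and UtyGT 1 were among the libraries for each of them. With the correction for GC content the calls of Ppargc1a, Tfeb, Nedd8, Usp15, Nfatc3, Ube2q2, Ddit4 and Cul5 were lost (edgeR adjusted p from 0.0659 to 0.145), and without a count filter those of Ube2j1, Nfatc3, Hdac9, Cul5 and Ube2q2 (0.0544 to 0.104).

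**Figure D4:**
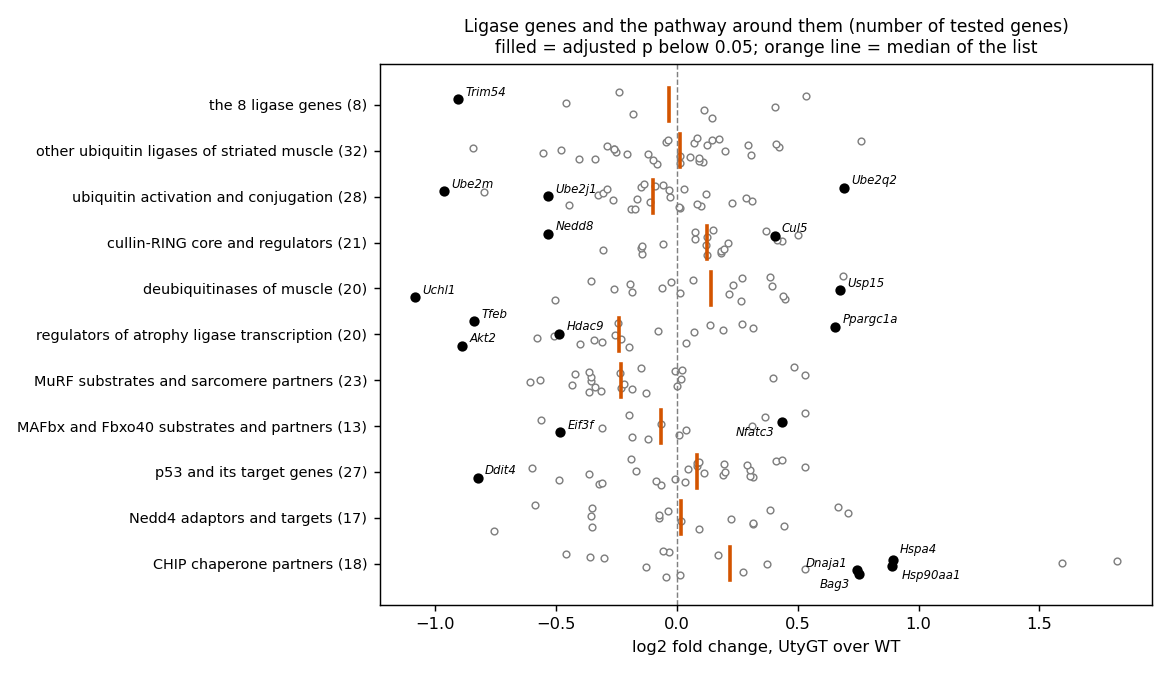
Log2 fold change of UtyGT over WT (horizontal axis) for tested genes of each list (rows, with the number of tested genes), where filled points with names are genes with an adjusted p below 0.05 and orange lines are medians. None of 32 other ligases was called, and 4 of 18 CHIP partners were called higher.

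Markers of other cells were measured beside these results. Of 10 endothelial markers 2 were called lower, Pecam1 (-0.51 ± 0.14, edgeR adjusted p = 0.0326) and Tie1 (-0.50 ± 0.14, edgeR adjusted p = 0.0394), with a summed level of 841 to 2416 CPM in UtyGT and 1283 to 1983 CPM in WT. The endothelial list had 9 negative values of 10 and a median of -0.36, with 6 at an unadjusted p below 0.05, and DESeq2 called 4 lower. Among those 6 was the 1 positive value, Fabp4, at 1080 ± 533 CPM in UtyGT and 577 ± 338 CPM in WT (0.91 ± 0.42, edgeR adjusted p = 0.186). Fabp4 had the highest mean of the list in both genotypes and so weighs most in the summed level. Of 5 tested red cell markers 2 were called lower, Hba-a1 and Hba-a2 (-1.14 ± 0.28 and -1.09 ± 0.29, edgeR adjusted p = 0.0220 and 0.0305), with sums of 1071 to 5117 CPM in UtyGT and 3192 to 6874 CPM in WT, and DESeq2 called 3 lower. Of 10 cardiomyocyte markers Ryr2 alone was called (0.42 ± 0.12, edgeR adjusted p = 0.0347). That list had 3 positive and 7 negative values, with a median of -0.09 and 2 at an unadjusted p below 0.05. The other of these 2 was Myl3, at 21417 ± 5850 CPM in UtyGT and 32650 ± 11194 CPM in WT (-0.61 ± 0.22, edgeR adjusted p = 0.0979). On leaving out single libraries the calls of Pecam1, Tie1, Hba-a2 and Ryr2 were lost in 6 to 9 of 14 fits (edgeR adjusted p up to 0.0907), and that of Hba-a1 in none. With the GC slope as a covariate Pecam1, Tie1, Hba-a1 and Hba-a2 stood at -0.19, -0.42, -0.66 and -0.62 and none was called (edgeR adjusted p = 0.328, 0.0944, 0.251 and 0.321). Ryr2 was called in that fit (0.44 ± 0.13, edgeR adjusted p = 0.0213). Without a count filter Ryr2, Tie1, Hba-a1 and Hba-a2 were not called (edgeR adjusted p = 0.0785, 0.0613, 0.0592 and 0.0876). With the correction for GC content Ryr2, Tie1 and Hba-a2 were not called (edgeR adjusted p = 0.0555, 0.251 and 0.0617), and Pecam1 and Hba-a1 were (0.0375 and 0.0454). No marker of fibroblasts, macrophages, atrial cells or smooth muscle and pericytes was called by edgeR, with 1, 3, 0 and 4 at an unadjusted p below 0.05, and DESeq2 called 1 higher and 1 lower in the smooth muscle and pericyte list and none in the others. Their medians were 0.07, 0.05, -0.02 and 0.31. In the smooth muscle and pericyte list 9 of 10 values were positive. The negative value was that of Abcc9, at 227 ± 21.4 CPM in UtyGT and 277 ± 10.4 CPM in WT with no overlap (-0.29 ± 0.09, edgeR adjusted p = 0.0602). The part of these cells in the values of the ligase genes was not tested.

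**Figure D5:**
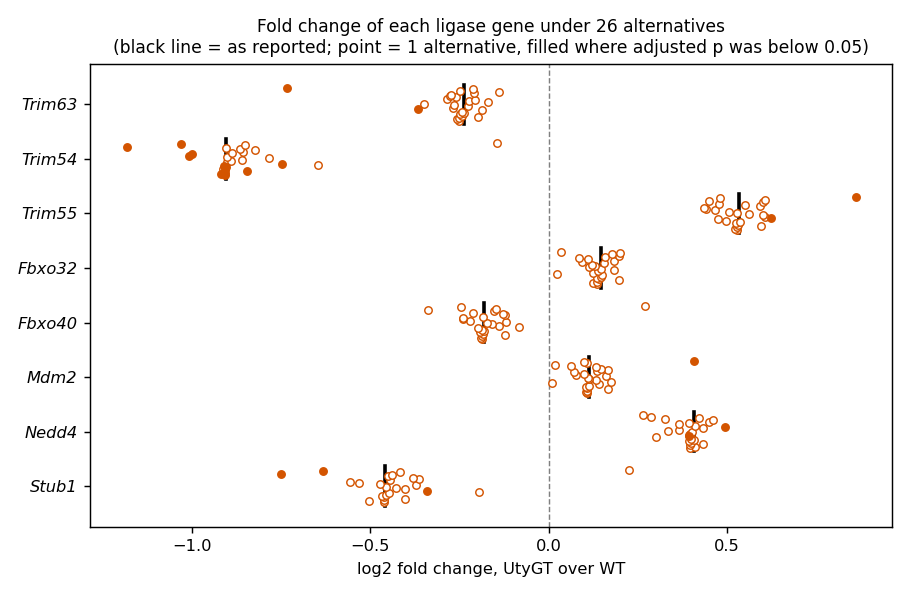
Log2 fold change of UtyGT over WT (horizontal axis) of each ligase gene as reported (black line) and under 26 alternatives of processing (points, filled where the adjusted p was below 0.05). Trim54 ranged from -1.18 to -0.15 and was called in 12 of 26, and Fbxo40 and Stub1 each crossed 0 under 1 alternative, the GC slope as a covariate.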

How the data were processed

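Left ventricular RNA of 14 mice was profiled by QuantSeq 3′ FWD, and samples were assigned to genotypes from their labels. Columns of the table carry the genotype and a number that the labels do not give, so libraries are numbered as in the table and are not tied to individual mice. According to the study's methods, the authors used the Bluebee platform to align reads to GRCm38/mm10, and the deposited counts come from featureCounts 1.6.0 on an Ensembl annotation. CASAVA 1.4, FastQC, STAR and DESeq2 1.22.2 are further tools in the submitters' processing notes. The deposited counts include 5 lines for reads without a gene (45.9% to 49.1% of reads per library), named as htseq-count names them, which were left out, as were 4984 annotated entries without counts. The remaining deposited columns hold the authors' own comparison of WT over UtyGT, namely a mean signal, log2 fold changes with standard errors, a test statistic (score) and p-values, and none of them was used.

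Counts were tested with edgeR 4.0.16 in R 4.3.3 (filterByExpr with a minimum count of 10, TMM, robust quasi-likelihood F test, genotype as the only term, Benjamini-Hochberg over 11563 genes). The biological coefficient of variation was 26.2%. GC content came from GENCODE M21 (11550 tested genes). Correlations within genotypes used exact two-sided permutation tests over 5040 pairings. The test was run on simulated data before use. The members, the lists and the pair WT 4 and UtyGT 6 were chosen with earlier results of these data known. Named genes were the members, Uty, up to 4 genes per list with the smallest adjusted p, and the 3 genes most like each member, and the skeletal muscle myosins, Fabp4 and Hspa8 were named after their values were seen. Some results that this rule names are not reported here. In the lists Skp1a and Mkl2 stand for Skp1 and Mrtfb by RefSeq synonyms, and Mrtfa was not matched. Alternatives were DESeq2 1.42.0, limma 3.58.1 voom, RLE or no composition scaling, removal of the 10 most abundant and mitochondrial genes, no filter or 1 CPM in 7 libraries, counts thinned to 6322161, a lowess GC correction (span 0.3), a surrogate variable from sva 3.50.0, each library left out, WT 4 and UtyGT 6 left out and, added after seeing the data, the GC slope as a covariate. No source used here mentions molecular identifiers, so that reads may be copies of the same molecule.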

Additional observations from a re-analysis of the deposited data

Results flagged for a closer look

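The level of Trim54 in UtyGT 6, 532 CPM, lay far from the other UtyGT libraries, with a gap to the nearest of them of 0.741 of the range of the genotype, and that of Stub1 in UtyGT 6, 285 CPM, with a gap of 0.744. The limit for 7 libraries is 0.568, and 16 groups were examined, of which chance flags about 1 in 20. Both flags fell on the same library. Levels of Trim54 and Stub1 went together over 14 libraries (r of 0.92 after subtraction of genotype means), so the 2 flags are not independent. UtyGT 6 was also the only UtyGT library with a positive GC slope, and its part in these values was not tested.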

How the results depend on the processing

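No paired analysis was possible because the labels give the genotypes no shared replicate numbers. Of the members, Trim54 was called lower under 12 of 26 alternatives, with an edgeR adjusted p from 1.63e-06 with a surrogate variable to 0.491 with the GC slope as a covariate, and Fbxo32 and Fbxo40 under none. The call of Trim54 was also lost with no count filter (adjusted p = 0.0788). With no count filter 337 genes were called higher and 0 members lower. DESeq2 called 680 genes lower. With the GC correction 309 genes were called higher and 247 lower, and 0 members lower. With a surrogate variable 1251 and 1244 genes were called, with 2 members higher (Nedd4 and Trim55) and 3 lower (Trim54, Stub1 and Trim63). Without WT 4 and UtyGT 6, 834 genes and 2 members (Trim54 and Stub1) were called lower. With the GC slope as a covariate 997 genes were called higher and 1125 lower, with 2 members higher, and 1 lower (Trim63). On leaving out single libraries 276 to 919 genes were called higher and 146 to 1329 lower, with 0 to 1 members higher and 0 to 2 lower. The main counts were 543 and 386 genes. The cause of these shifts was not tested. Spread between libraries rather than depth limited the members, which had 593 or more counts in every library except for Trim55. With total counts in place of TMM scaling, the r of Fbxo32 with Fbxo40 in WT went to -0.52 in place of 0.32 and that of the GC slope with Nedd4 in UtyGT to -0.22 in place of 0.00, and the other 24 correlations kept their sign. Of these, that of Trim63 with Fbxo32 in WT moved to 0.69 in place of 0.17, that of the GC slope with Fbxo32 in WT to -0.77 in place of -0.12 and that with Mdm2 in WT to 0.34 in place of 0.68.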
